A study of Mus musculus with 6 samples.

Results

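The nuclear-encoded subunits of the respiratory chain were examined in whole brain of mice that lack ADAR1 editing. Members were taken by symbol, as every retained gene whose name marks it as a subunit of complex I (*Nduf*), complex II (*Sdh*), complex III (*Uqcr* and *Cyc1*), complex IV (*Cox4* to *Cox8*) or complex V (*Atp5*). The rule found 78 of 13891 retained genes, on 19 chromosomes. They comprised 36 genes of complex I, 4 of complex II, 9 of complex III, 12 of complex IV and 17 of complex V. In the full count table of 37310 genes the same symbols matched 91 rows, and 13 of these were not retained.

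Whole brains of male mice, taken at 12 weeks of age, were sequenced as total RNA, with 3 libraries for each of 2 genotypes. One genotype was *Adar1* E861A/E861A *Ifih1*-/-, called E861A here, and carries a germline point mutation in both copies of *Adar1* that removes RNA editing by ADAR1. The other was *Adar1* +/+ *Ifih1*-/-, called wild type here for its *Adar1* alleles alone. Both genotypes lack *Ifih1*, the gene of MDA5, a sensor of double-stranded RNA, so animals with intact MDA5 did not enter this comparison. The comparison addressed whether the loss of ADAR1 editing changes brain transcript levels when MDA5 is absent. Nothing in the sources used here states which litters the animals came from.

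The respiratory chain passes electrons from NADH and succinate to oxygen across complexes I to IV of the inner mitochondrial membrane and pumps protons as it does so. Complex V, the ATP synthase, lets the protons flow back and makes ATP. Most subunits are encoded in the nucleus and imported, while a small set of core subunits is encoded by mitochondrial DNA. Neurons rely heavily on this pathway, which supplies the ATP used for ion pumping and synaptic transmission.

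Each library held between 26853488 and 38076753 counts. *Adar* was present at 166, 167 and 154 CPM (counts of a gene in each 1e6 counts of tested genes, after TMM scaling) in the E861A libraries and at 116, 176 and 163 CPM in wild type. The mutation changes 1 residue, so this level does not check the genotype. *Ifih1* held 38 to 56 counts in each of the 6 libraries, below the level used for testing. E861A replicate 1 stood apart in pituitary transcripts. It held 8416 counts of growth hormone (*Gh*) and 3274 of prolactin (*Prl*), against 0 to 47 and 0 to 12 counts in the other 5 libraries. Markers of brain cells were abundant in all 6 libraries: 7 of neurons summed to 4100 to 4290 CPM, 4 of astrocytes to 800 to 890 CPM and 4 of oligodendrocytes to 3950 to 4330 CPM.

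The levels of the subunits were first compared with each other per exonic length, as CPM per kilobase of exon, in the wild-type libraries. Transcripts of complex IV were the most abundant, with a median of 87.9 CPM per kilobase over 12 genes. The medians were 53.3 for complex III, 35.3 for complex V, 34.7 for complex I and 28.6 for complex II. *Cox4i1*, which encodes a nuclear subunit of cytochrome c oxidase needed early in its assembly, had the highest level of all members, at 291 ± 8.53 CPM per kilobase (SD, n = 3). It was followed by *Cox8a* at 222 ± 6.97 and by *Ndufa4* at 199 ± 9.67 CPM per kilobase (SD, n = 3). *Ndufa4* carries a complex I name, but its protein is now placed in complex IV. *Cox6b1*, at 177 ± 7.30 CPM per kilobase, came next. Each of these steps exceeded the sum of the 2 standard deviations.

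**Figure D1:**
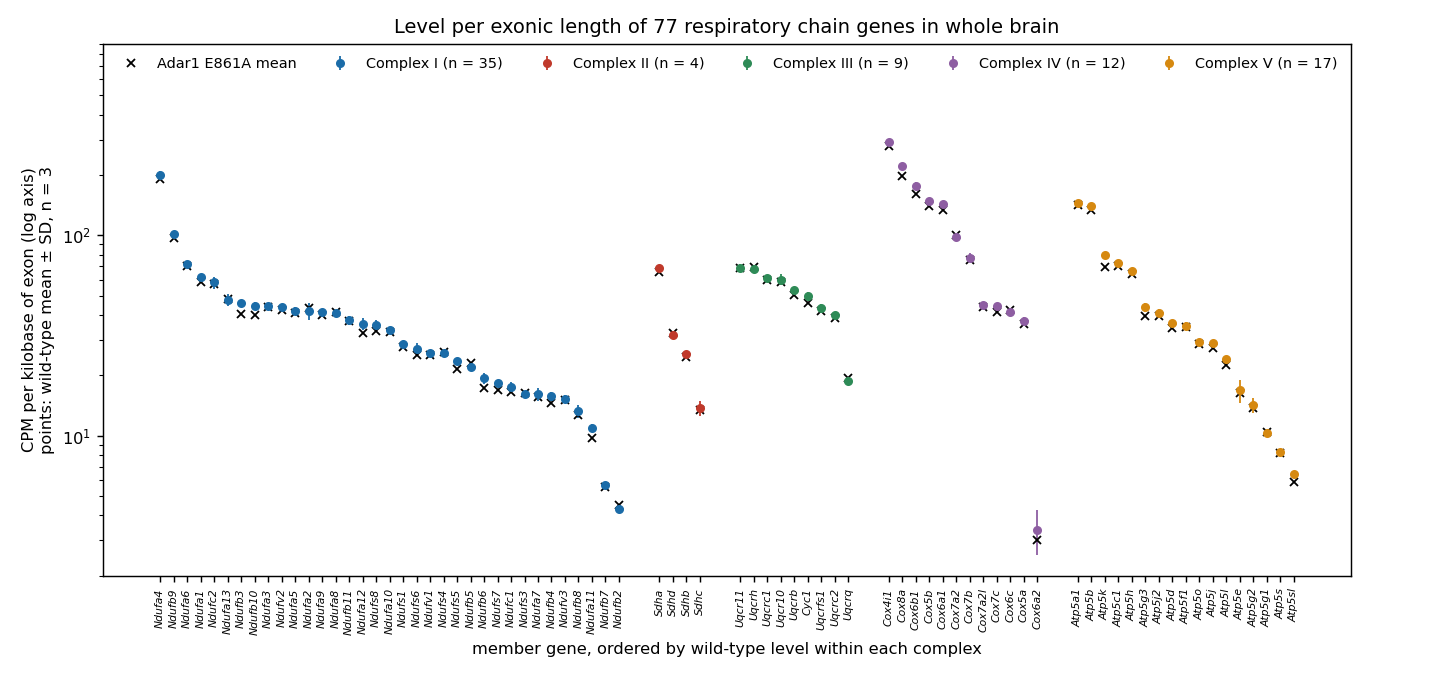
Level per exonic length of 77 of the 78 members, in CPM per kilobase of exon on a log axis, with members ordered within each complex. Coloured points are wild-type means with SD (n = 3) and crosses are E861A means. *Cox4i1* was highest at 291 and *Cox6a2* lowest at 3.39 CPM per kilobase, and the crosses lie close to the points throughout.

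Within complex V the nucleotide-binding subunits α and β of the F1 head, of which β is catalytic, led, with *Atp5a1* at 145 ± 3.79 and *Atp5b* at 140 ± 4.08 CPM per kilobase (SD, n = 3). Over all exonic bases these 2 differed by less than the sum of their standard deviations, whereas with the longest transcript they stood apart (below). *Atp5k*, for the small membrane subunit e, followed at 79.6 ± 1.78 CPM per kilobase. The lowest was *Atp5sl* at 6.45 ± 0.244 CPM per kilobase, which bears the family name without being a subunit of the enzyme. In complex III the levels kept within a 3.67-fold range, from *Uqcrq* at 18.8 ± 0.629 to *Uqcr11* at 69.0 ± 2.89 CPM per kilobase. *Uqcrh* (68.1 ± 3.19) and the core protein gene *Uqcrc1* (61.1 ± 0.568) followed *Uqcr11*. Complex II ran from *Sdhc*, a membrane anchor, at 13.7 ± 1.24 to the flavoprotein gene *Sdha* at 68.4 ± 3.03 CPM per kilobase. *Sdhb*, the iron-sulphur subunit, was at 25.4 ± 0.109 and the other anchor *Sdhd* at 31.9 ± 1.36 CPM per kilobase.

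Complex I spanned a 46.4-fold range, and a 23.5-fold range without *Ndufa4*. After *Ndufa4* came *Ndufb9* at 101 ± 3.56 and *Ndufa6* at 71.7 ± 1.42 CPM per kilobase, both accessory subunits. *Ndufb2* was lowest at 4.29 ± 0.168 CPM per kilobase, over 5628 annotated exonic bases. The 7 nuclear core subunits, which carry the flavin and the iron-sulphur clusters or bind the quinone, lay between 16.2 CPM per kilobase for *Ndufs3* and 43.7 for *Ndufv2*. Level per length depends on the annotated length. With the longest transcript in place of all exonic bases, *Atp5b* stood at 309 and *Cox4i1* at 291 CPM per kilobase. *Atp5a1* stood at 170 by that length. The order within a complex also changed: *Atp5h* (114) lay above *Atp5k* (87.1), and *Uqcrh* (105) above *Uqcr11* (73.1). The order of the 78 members was similar between both lengths (Spearman rho = 0.917 across genes, which are not independent replicates).

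Processed copies of these genes are spread over the genome, and the authors' counts take only reads with a single match. Of the 78 members, 30 had a stretch of at least 75 bases, the read length, that occurs letter for letter elsewhere in the NCBIM37 genome, and 48 had none. In 9 members at least 50% of the transcript was shared in this way. *Atp5g2* was shared over 100% of its length, *Atp5l* over 90.4%, *Uqcrb* over 88.6% and *Cox5b* over 83.2%. The median level was 44.8 CPM per kilobase in the 9 and 41.5 in the 48. These are different genes, so the medians cannot show whether reads of the shared members were lost. The search used the length of a single read, and the place of its mate in the pair was not considered. What kind of sequence lies at the other places was not examined, and *Atp5g1* had 455 of them. The absolute level of each shared member is uncertain.

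The members were then compared between genotypes. No respiratory chain gene passed the test: 0 of 77 tested members were called (edgeR quasi-likelihood test, Benjamini-Hochberg adjusted p under 0.05 over all 13649 tested genes), where 0.506% of all genes were. DESeq2, the likelihood ratio test and limma-voom also called 0 members, with 7, 8 and 9 members at an unadjusted p under 0.05. The smallest adjusted p of a member was 0.238 in the quasi-likelihood test, 0.103 in the likelihood ratio test, 0.236 in DESeq2 and 0.26 in limma-voom. All 77 differences were under 0.2 in absolute log2 value, with standard errors between 0.044 and 0.092. The remaining member, *Cox6a2*, reached the count minimum in too few libraries to be tested with the others and is described with the isoforms.

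Although no gene passed, the values leaned to one side. The E861A mean was lower for 64 of 77 members and higher for 13, whereas 50.5% of all tested genes were lower. The median log2 difference (E861A minus wild type) was -0.045 over the members and -0.001 over all genes. At an unadjusted p under 0.05 there were 9 members, and the E861A mean was the lower in 9 of 9. Over all genes 4.23% passed this limit as lower and 4.78% as higher. When the fit was blocked by replicate number there were 14 members, again lower in 14 of 14, and 7.2% of all genes passed as lower in that fit. All 3 E861A libraries lay below all 3 wild-type libraries for 13 members, or 16.9%, against 6.66% of all genes. All 3 lay above for 0 members, against 7.51% of all genes. The members share their libraries and were chosen with earlier results known, so these counts carry no p-value.

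**Figure D2:**
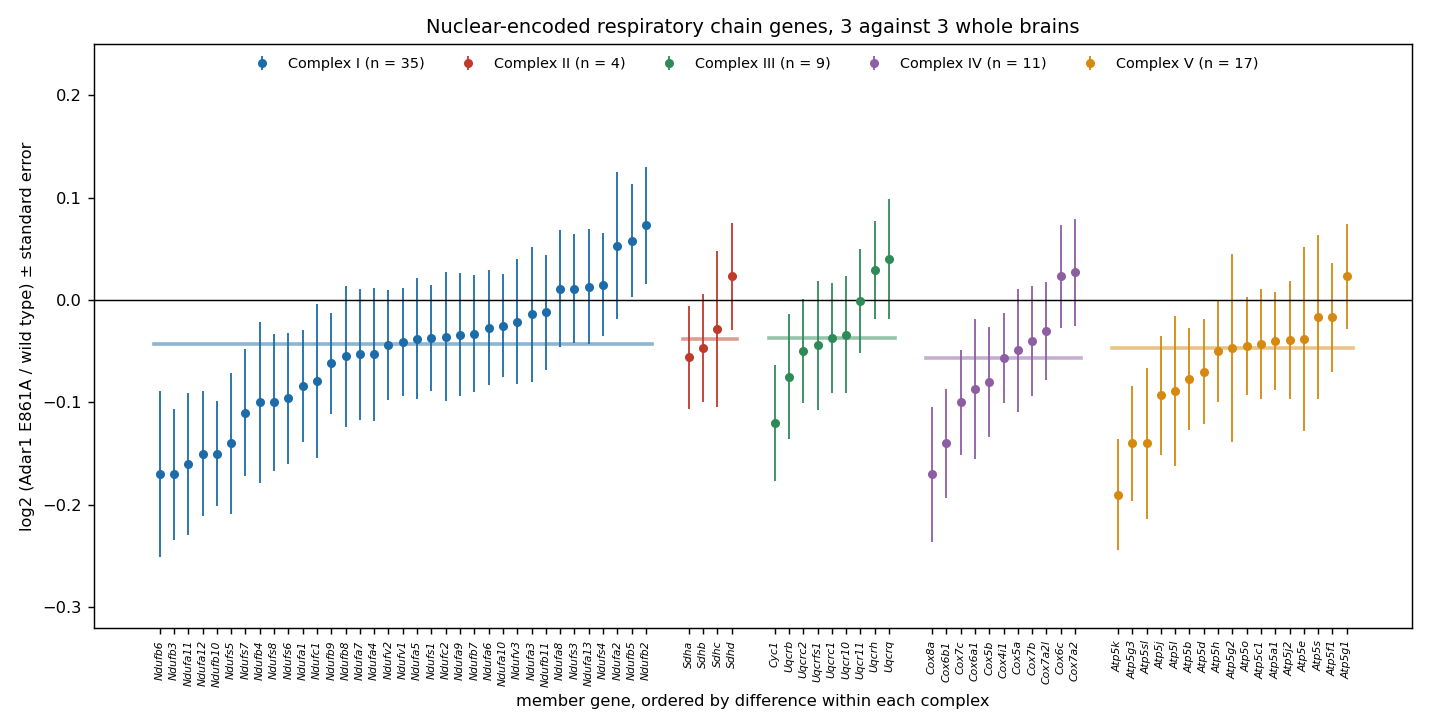
Log2 difference (E861A minus wild type) of 76 of the 77 tested members, ordered within each complex, with standard errors from edgeR. Horizontal bars mark the median of each complex over its tested members, from -0.057 in complex IV to -0.037 in complex III. Most points lie below 0, and no member passed the adjusted threshold.

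By complex, the median log2 difference was -0.043 in complex I (29 of 36 members below 0), -0.038 in complex II (3 of 4), -0.037 in complex III (7 of 9), -0.057 in complex IV (9 of 11) and -0.047 in complex V (16 of 17). Whether the complexes differed from each other was not tested. Leaving out 1 library moved each of these medians by more than 1.5 times. Complex II ran from -0.098 without E861A replicate 2 to 0.015 without wild-type replicate 2, where its sign turned. Complex III ran from -0.087 without E861A replicate 2 to -0.0067 without E861A replicate 1. The medians of complexes I, IV and V stayed below 0, with the value nearest to 0 at -0.018, -0.034 and -0.03 without E861A replicate 1. The summed level of the 77 members was 5184, 5614 and 5328 CPM in the E861A libraries and 5514, 5769 and 5461 CPM in wild type. The ranges overlapped, and the mean sum differed by -3.7%.

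The libraries were not alike within a genotype. E861A replicate 1 was the lowest of the 6 libraries for 41 of 77 members (53.2%, against 18% of all genes). Wild-type replicate 2 was the highest for 47 members (61.0%, against 18.3%). The median deviation of the members from their own mean over the 6 libraries was -0.081 in E861A replicate 1 and 0.078 in wild-type replicate 2 on the log2 scale. The other 4 libraries lay between -0.025 and 0.028, with E861A replicate 2 above all but 1 wild-type library. Within same-numbered pairs, the E861A library was the lower for 59 members in pair 1, 59 in pair 2 and 43 in pair 3. In all 3 pairs it was lower for 25 of 77 members, and 18.3% of all genes did the same.

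**Figure D3:**
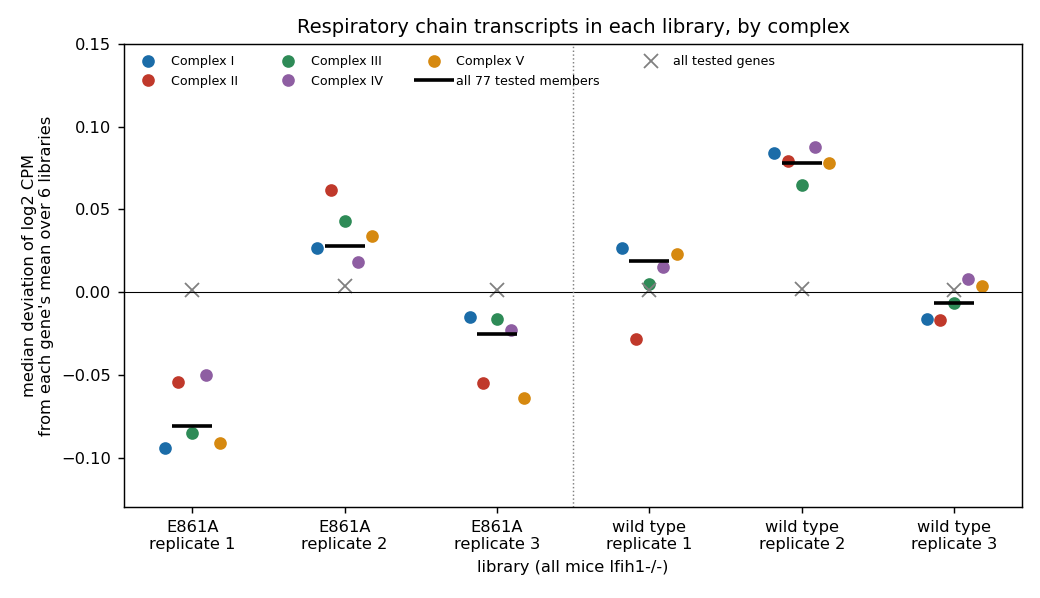
Median deviation of log2 CPM from each gene's mean over the 6 libraries, for each complex (coloured points), all 77 tested members (bars) and all tested genes (crosses). E861A replicate 1 lies lowest at -0.081 and wild-type replicate 2 highest at 0.078, and the other 4 libraries lie between -0.025 and 0.028.

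Without E861A replicate 1, the library with pituitary transcripts, 50 members were below 0 and 27 above, and the median was -0.022. Without wild-type replicate 2 the counts were 52 and 25, with a median of -0.022. At an unadjusted p under 0.05 there were then 4 members in the first case and 1 in the second, again with the E861A mean lower. Without E861A replicate 2 the counts were 70 and 7, with a median of -0.087 and 15 members at an unadjusted p under 0.05, and without E861A replicate 3 they were 57 and 20. Without wild-type replicate 1 the counts were 68 and 9 with a median of -0.057, and without wild-type replicate 3 they were 66 and 11 with a median of -0.07. The median kept its sign in these 6 fits. Its size moved by more than 1.5 times without E861A replicate 1, E861A replicate 2, wild-type replicate 2 or wild-type replicate 3.

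Several other values moved with the same contrast. The 7 neuronal markers summed to 4099, 4243 and 4122 CPM in the E861A libraries and to 4245, 4283 and 4294 CPM in wild type. The highest E861A sum thus nearly met the lowest of wild type. The median log2 difference was -0.046, and in 0 of the 7 did all E861A libraries lie below all wild-type libraries. Markers of endothelium (3 genes, median -0.37), of smooth muscle and pericytes (5 genes, -0.43) and of choroid plexus (3 genes, -0.24) were each below 0 in every tested gene. The 4 microglial genes were also each below 0, with a median of -0.068. The medians were 0.024 for astrocytes and 0.042 for oligodendrocytes, and the interneuron gene *Pvalb* was at -0.16. Of all these genes 0 were called. The 5 blood transcripts were each below 0 as well, with a median of -0.47 and 0 called. In wild-type replicate 2 their median deviation was 0.83 on the log2 scale. Fewer cells of a type and less RNA per cell cannot be told apart in whole tissue, and the part of these values in the members' lean was not tested. Exonic length also differed, with a median of 1322 bases in the members and 3829 in all tested genes. With offsets for length the median of the members was -0.046 and 64 were again below 0.

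The member with the smallest p was *Atp5k* (chromosome 5, 108862263 to 108863467, minus strand, NCBIM37), for subunit e, which helps hold ATP synthase dimers together. It stood at 40.8, 45.5 and 42.2 CPM in E861A and at 48.7, 50.3 and 48.2 CPM in wild type. The groups did not overlap, and the highest E861A library was replicate 2. The log2 difference was -0.19 ± 0.054 (SE), or 12.6% lower, with an adjusted p of 0.238 by the edgeR quasi-likelihood test (unadjusted p = 0.00294). When the fit was blocked by replicate number, the adjusted p was 0.0566. With length offsets added to that block it was 0.0491, the single call of any member in any fit. Without E861A replicate 1 the difference was -0.16 ± 0.057 and the adjusted p 0.537.

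In complex I, *Ndufb10*, an accessory subunit of the membrane arm, stood at 47.6, 49.7 and 48.0 CPM in E861A and at 53.3, 56.6 and 51.9 CPM in wild type. Its 3 E861A libraries were close together and all below wild type (log2 -0.15 ± 0.051). *Ndufb3* stood at 28.3, 33.4 and 31.1 against 33.8, 36.3 and 34.6 CPM, close but without overlap (log2 -0.17 ± 0.064, and -0.11 without E861A replicate 1). *Ndufa12*, an accessory subunit of the matrix arm, stood at 40.9, 44.6 and 44.9 against 46.9, 52.1 and 45.7 CPM (log2 -0.15 ± 0.061, and -0.089 without wild-type replicate 2). *Ndufb6* was the least abundant of the group, at 10.7, 11.5 and 11.9 against 12.6, 13.5 and 12.0 CPM (log2 -0.17 ± 0.081). The groups came close without overlap in *Ndufa12* and *Ndufb6*. *Ndufa11*, which binds the membrane arm, overlapped, with 25.1, 28.5 and 23.9 against 29.4, 29.9 and 27.4 CPM (log2 -0.16 ± 0.069, and -0.24 without E861A replicate 2). The adjusted p-values of these 5 genes lay between 0.371 and 0.569 (edgeR quasi-likelihood test).

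In complex IV, *Cox6b1*, whose protein joins the monomers of the cytochrome c oxidase dimer, stood at 81.2, 85.1 and 76.3 CPM in E861A and at 90.2, 92.7 and 85.5 CPM in wild type. The log2 difference was -0.14 ± 0.053. *Cox8a*, for the small subunit VIII, stood at 113, 116 and 94.1 against 118, 125 and 119 CPM, and E861A replicate 3 lay far below the other 5 libraries. Its log2 difference was -0.17 ± 0.066, and -0.081 ± 0.046 without that library. In complex V, *Atp5g3*, a gene for the proton-carrying c subunit, stood at 81.2, 91.8 and 86.9 against 91.9, 101 and 93.4 CPM (log2 -0.14 ± 0.056). In complex III, *Cyc1*, for the haem protein cytochrome c1, stood at 53.2, 58.7 and 52.0 against 57.5, 62.0 and 59.2 CPM, with overlap (log2 -0.12 ± 0.057). The adjusted p-values of these 4 genes lay between 0.447 and 0.550 (edgeR quasi-likelihood test).

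**Figure D4:**
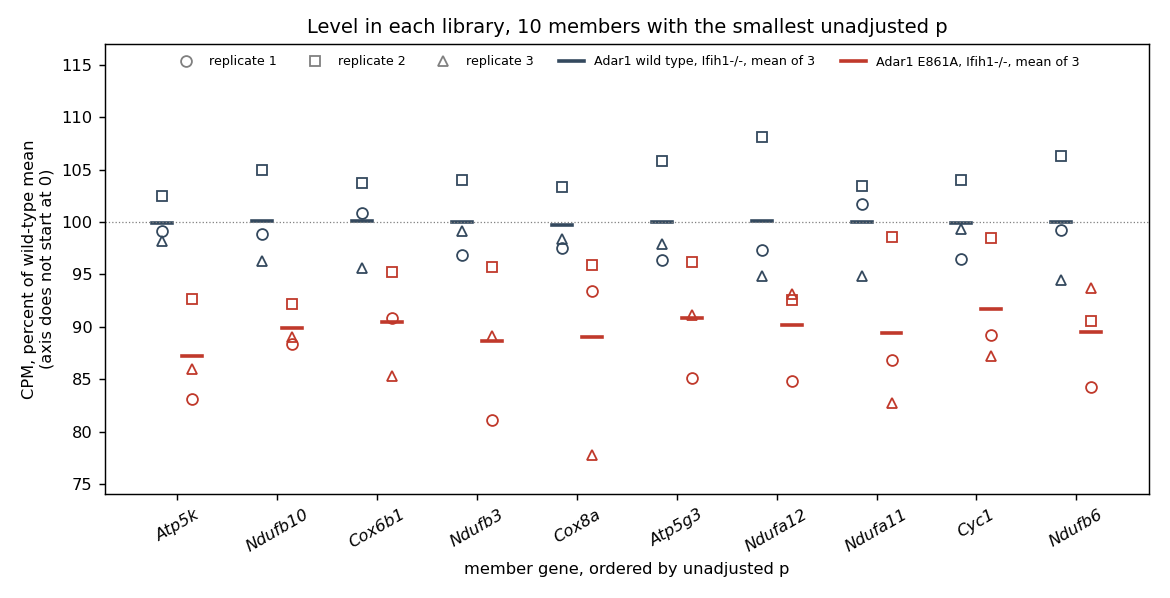
CPM in each library as a percent of the wild-type mean, for the 10 members with the smallest unadjusted p; the axis does not start at 0. Symbols mark replicates and bars the mean of 3. The E861A means lie 8.2% to 12.6% below wild type by the fitted difference, wild-type replicate 2 is the highest library in every gene shown, and the genotypes overlap in *Ndufa11* and *Cyc1*.

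The promoters of such genes are known targets of the factors NRF1, GABPA (NRF2) and YY1, which act with the coactivator PGC-1α. RefSeq promoters of 300 bases (250 before to 50 after the first listed start, GRCm38.p6) were matched for 65 of the 78 members. On either strand, the NRF1 letters CGCATGCGC occurred in 12.3% of member promoters and 1.8% of all 27025, the GABPA letters CCGGAAG in 23.1% and 9.1%, and the YY1 letters AAGATGGCG in 10.8% and 1.5%. Any of the 3 occurred in 40.0% of member promoters and 11.8% of all. The 27025 promoters were not limited to genes expressed in brain, and the share over tested genes was not calculated. A match is a run of letters, not a measured site. Of the 9 promoters found for the 10 members above, 5 held a match. Shown are 3 of them, chosen to present both kinds of match, 5′ to 3′ on the gene's strand with matches in capitals: *Atp5k* (chr5:108434350-108434649, minus strand), *Ndufa11* (chr17:56717512-56717811, plus strand) and *Cox8a* (chr19:7217567-7217866, minus strand). The NRF1 letters and their reverse overlap by all but 1 base, so both strands match in the same place.
Atp5k: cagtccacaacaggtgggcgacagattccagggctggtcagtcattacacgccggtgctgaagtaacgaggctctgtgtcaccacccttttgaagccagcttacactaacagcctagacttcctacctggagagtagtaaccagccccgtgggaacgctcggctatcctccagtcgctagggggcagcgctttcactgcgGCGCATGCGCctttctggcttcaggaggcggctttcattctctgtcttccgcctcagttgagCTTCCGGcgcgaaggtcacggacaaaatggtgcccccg
Ndufa11: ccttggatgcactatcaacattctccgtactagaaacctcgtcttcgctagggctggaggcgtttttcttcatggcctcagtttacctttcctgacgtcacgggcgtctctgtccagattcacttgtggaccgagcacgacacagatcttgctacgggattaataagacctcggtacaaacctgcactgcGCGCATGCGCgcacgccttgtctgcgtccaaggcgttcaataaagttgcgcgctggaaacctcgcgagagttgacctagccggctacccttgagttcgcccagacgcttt
Cox8a: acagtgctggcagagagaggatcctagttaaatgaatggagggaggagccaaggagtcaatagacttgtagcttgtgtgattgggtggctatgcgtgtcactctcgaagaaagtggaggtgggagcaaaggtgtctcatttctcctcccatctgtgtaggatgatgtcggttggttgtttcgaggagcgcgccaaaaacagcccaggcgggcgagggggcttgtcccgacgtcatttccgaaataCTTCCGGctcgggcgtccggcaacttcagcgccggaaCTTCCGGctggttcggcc
The NRF1 run began 50 bases before the start in *Atp5k* and 60 before it in *Ndufa11*. *Atp5k* also held the GABPA letters at position 13 after the start, and *Cox8a* held them at position 5 before and position 33 after it. *Cox6b1* (28 bases before the start) and *Ndufb6* (232 before) held the GABPA letters as well.

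The genes of the factors themselves did not pass the test either. Of 14 regulators, 0 were called, with 7 above and 7 below 0 and a median log2 difference of -0.0089. *Nrf1* differed by 0.087 ± 0.062, *Gabpa* by 0.057 ± 0.056, *Yy1* by -0.092 ± 0.050 and *Ppargc1a*, the gene for PGC-1α, by 0.0044 ± 0.047 on the log2 scale (SE), with adjusted p-values of 0.712, 0.802, 0.614 and 0.988 (edgeR quasi-likelihood test).

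At the other end of the range, 13 members had a higher mean in E861A, and none of them exceeded 0.073. *Ndufb2*, an accessory subunit of complex I, stood at 25.6, 24.9 and 25.6 CPM in E861A and at 23.2, 24.1 and 25.1 CPM in wild type, with overlap. Its log2 difference of 0.073 ± 0.057 was the largest of these. The largest positive values of the other complexes were 0.040 ± 0.059 for *Uqcrq*, 0.027 ± 0.052 for *Cox7a2*, 0.023 ± 0.051 for *Atp5g1* and 0.023 ± 0.052 for *Sdhd* (log2, SE). Each of these 4 values was smaller than its standard error. The E861A library was the lower in 0 of 3 pairs for *Ndufb2*, *Uqcrq*, *Cox7a2* and *Atp5g1*.

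The 7 core subunits of complex I had a median log2 difference of -0.044, with 6 below 0, and the genotypes overlapped in each of them. *Ndufs7*, which carries the last iron-sulphur cluster before the quinone, had the largest, -0.11 ± 0.062. It stood at 28.8, 31.4 and 26.9 CPM in E861A and at 31.2, 32.1 and 31.1 CPM in wild type, so replicate 2 of E861A was within the wild-type range. Its difference was -0.18 without that library and -0.063 without E861A replicate 3. *Ndufs3* stood at 34.4, 37.4 and 35.0 against 36.1, 35.3 and 34.7 CPM, the single core subunit above 0 (0.011 ± 0.053). The 29 accessory subunits had a median of -0.038, and in 6 of them (20.7%) all E861A libraries lay below all wild-type libraries, against the 6.66% of all genes given above.

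The 4 genes of complex II, which is built without mitochondrially encoded subunits and also belongs to the citric acid cycle, overlapped between genotypes. *Sdha* stood at 246, 270 and 250 CPM in E861A and at 258, 279 and 259 CPM in wild type (log2 -0.056 ± 0.050). *Sdhb* differed by -0.047 ± 0.053, *Sdhc* by -0.028 ± 0.076 and *Sdhd* by 0.023 ± 0.052. Of 13 citric acid cycle genes 0 were called and 11 were below 0, with a median of -0.049, close to that of the members. In the 5 subunits of the F1 head of complex V the median was -0.043 with 5 of 5 below 0, and in the 10 subunits of the stalk and membrane part it was -0.048 with 9 of 10 below 0.

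Several subunits are made from alternative genes with different tissue use, and the brain set was dominated by the ubiquitous or liver forms. *Cox4i1* made up 99.7% ± 0.0696 of the summed level per length of *Cox4i1* and *Cox4i2* in wild type, and *Cox6b1* 98.8% ± 0.212 of *Cox6b1* and *Cox6b2* (SD, n = 3). *Cox8a* made up 99.5% ± 0.205 of its set and *Ndufa4* 99.5% ± 0.129 of the pair with *Ndufa4l2*. *Cox6a2*, the form known from heart and skeletal muscle, was the retained gene below the testing limit. It stood at 2.05, 2.13 and 1.74 CPM in E861A and at 2.14, 2.84 and 1.71 CPM in wild type, or 2.31% ± 0.534 of the *Cox6a* sum in wild type and 2.18% ± 0.0523 in E861A. In a fit that admitted genes with the minimum in any 3 libraries its log2 difference was -0.17 ± 0.19, with an adjusted p of 0.838 (edgeR quasi-likelihood test). Both groups overlapped.

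**Figure D5:**
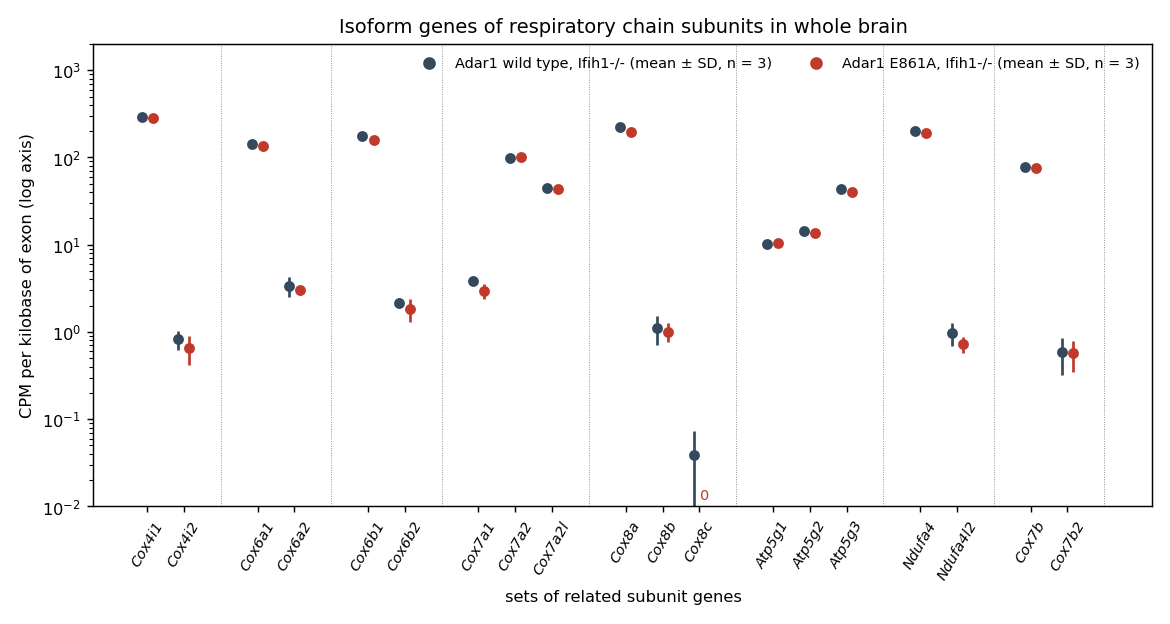
Level per exonic length, in CPM per kilobase on a log axis, of the genes in 8 sets of related subunits, as mean and SD over 3 libraries per genotype. *Cox8c* was at 0 in E861A and its wild-type SD bar runs below the axis. In each *Cox* and *Ndufa4* set 1 gene lies far above its rarest partner. *Atp5g1*, *Atp5g2* and *Atp5g3* differ by less, at 10.3, 14.2 and 43.8 CPM per kilobase in wild type.

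The 13 symbol matches that were not retained held few reads. *Cox7a1*, the heart and muscle form of subunit VIIa, had 35, 30 and 32 counts in E861A and 49, 55 and 51 in wild type, or 1.20, 0.841 and 1.21 against 1.34, 1.47 and 1.43 CPM, without overlap. Its log2 difference was -0.41 ± 0.21 and its adjusted p 0.638 under the filterByExpr limit of edgeR. Among the markers of smooth muscle and pericytes *Acta2* differed by -0.46 (adjusted p = 0.175), *Myh11* by -0.52 (0.175) and *Rgs5* by -0.43 (0.0717). *Tagln* differed by -0.18 (0.703) and *Pdgfrb* by -0.04 (0.912), all by edgeR's quasi-likelihood test. The 10 markers of skeletal and cardiac muscle summed to between 17.8 and 26.2 CPM in E861A and between 18.5 and 19.5 CPM in wild type, and the skeletal muscle gene *Ckm* held 1 to 15 counts. *Ucp1* of brown fat, another tissue that uses *Cox7a1*, was at most at 0.225 CPM. The part of these tissues in the *Cox7a1* values was not tested.

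*Cox4i2*, the lung form of subunit IV, held 10 to 30 counts per library, and *Ndufa4l2*, a relative of *Ndufa4* known from pericytes and hypoxic cells, 14 to 42. *Cox6b2*, the testis form, held 20 to 49 counts and *Cox7b2* 6 to 18. *Cox8b*, the heart and muscle form of subunit VIII, held 8 to 20 counts. *Cox8c*, another testis form, held 0 counts in each E861A library and 1, 0 and 1 in wild type. A count of 0 allows up to 0.112 CPM in the shallowest library, for counting error only. The other 6 rows, *Uqcrh-ps1*, *Uqcrh-ps2*, *Atp5k-ps2*, *Atp5l-ps1*, *Atp5l-ps2* and *Atp5l2-ps*, carry pseudogene names and held 0 to 4 counts. In a fit without a count limit 0 of the 12 genes with reads were called (edgeR quasi-likelihood test).

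The c subunit of complex V has 3 genes, and all of them were tested. In wild type and over all exonic bases *Atp5g3* made up 64.1% ± 0.728 of their summed level per length, *Atp5g2* 20.8% ± 1.15 and *Atp5g1* 15.1% ± 0.484 (SD, n = 3). These shares depend on the length used. With the longest transcript they were 81.7%, 10.4% and 7.87% in wild type. In E861A the shares over all exonic bases were 62.1% ± 1.13, 21.5% ± 0.747 and 16.4% ± 0.391. The share of *Atp5g1* was 16.8%, 16.1% and 16.1% in E861A and 15.6%, 14.9% and 14.7% in wild type, without overlap. An exact two-sided permutation test of 3 against 3 libraries cannot give a p below 0.1, and this share was picked out after its values were seen. The level of *Atp5g2* carries the limit given above, since its whole transcript also occurs elsewhere in the genome. *Atp5g1* was shared over 32.3% of its transcript and *Atp5g3* over 0%. Since each share is a part of 1 sum, the limit reaches all 3 shares.

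The 3 genes differ in the import sequence at the start and encode the same mature protein. The last 79 codons, stop included, encode the same residues in all 3, yet 64 of these 237 bases differ, with at most 8 bases in a row without a difference. The last 120 coding bases are shown, 5′ to 3′, from GENCODE vM1 transcripts, with capitals at the 31 positions where the 3 are not all alike.
Atp5g1: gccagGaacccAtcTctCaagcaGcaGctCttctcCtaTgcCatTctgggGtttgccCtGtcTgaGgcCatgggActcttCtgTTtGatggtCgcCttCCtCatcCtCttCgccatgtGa
Atp5g2: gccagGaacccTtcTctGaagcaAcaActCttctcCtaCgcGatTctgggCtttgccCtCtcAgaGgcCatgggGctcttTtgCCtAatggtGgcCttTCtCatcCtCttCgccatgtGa
Atp5g3: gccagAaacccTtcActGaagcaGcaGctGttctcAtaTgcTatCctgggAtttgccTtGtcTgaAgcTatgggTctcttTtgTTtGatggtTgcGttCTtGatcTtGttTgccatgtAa
Between pairs of genes the longest identical run was 21 bases, well short of the 75-base read, so a read of this stretch tells the 3 genes apart. The whole *Atp5g2* transcript also occurs elsewhere in the genome, however, so its reads may lack a single match and not be counted. *Atp5g1* (chromosome 11), *Atp5g2* (chromosome 15) and *Atp5g3* (chromosome 2) are not neighbours. Their log2 differences were 0.023 ± 0.051, -0.047 ± 0.092 and -0.14 ± 0.056.

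The wider pathway was read from further lists. Of 42 tested assembly factors 0 were called, and 26 were above 0, with a median log2 difference of 0.018. Of 7 subunits and electron carriers outside the symbol rule, among them *Cycs* for cytochrome c (-0.0077 ± 0.055) and *Ndufab1* (-0.0052 ± 0.065), 0 were called and the median was -0.0077. The medians of the members (-0.045) and of the citric acid cycle genes (-0.049) were larger in size. Of the 7 genes outside the rule 6 were below 0. The largest fall was -0.12 ± 0.063 in *Etfa*, with *2010107E04Rik* at -0.072 ± 0.069 and *Etfdh* at -0.045 ± 0.064. *Etfb* was above 0, at 0.062 ± 0.088. The assembly factors did not lean below 0, and the difference between lists was not tested. Of the 13 mitochondrially encoded subunits 7 could be tested, 0 were called and 7 were below 0, with a median of -0.11. E861A replicate 1 held the lowest values, with a median log2 deviation from the mean of the 6 libraries of -0.26, against -0.017 and 0.12 in the other E861A libraries and -0.0066 to 0.11 in wild type. Without it the median was -0.015, with 5 below and 2 above 0. The 6 untested genes held at most 19 counts in a library, such as 0 to 5 for *mt-Co2* beside 235646 to 366568 for *mt-Co1*. The counts take only reads with a single match, and shared stretches were searched for the nuclear members alone. The part of this limit in the 6 low counts was not tested, so they are not read as absence. The sum of the 13, which came almost wholly from the 7 tested, lay between 27800 and 35400 CPM in E861A. In wild type it lay between 33300 and 35800 CPM.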

How the data were processed

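Total RNA of whole brain was sequenced after ribosomal RNA depletion, as 75-base paired reads from a stranded kit, in 3 libraries per genotype, which the labels number 1 to 3 as replicates. The authors trimmed reads with Trimmomatic 0.36, aligned them to NCBIM37 (mm9) with STAR 2.5.2a and deposited raw counts per gene from STAR. The strand column taken was not given in the sources used here, so overlapping antisense genes are uncertain. The authors also deposited CPM values over the 13891 retained genes, which here set the membership alone. A table of the authors' own fold changes was not used. 0 columns were left without a sample.

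Counts were tested in R 4.3.3 with edgeR 4.0.16 (TMM, quasi-likelihood test, no covariates). Genes with at least 2 CPM in 3 of 3 libraries of either genotype were kept, which left 13649, and Benjamini-Hochberg adjustment ran over all of them. The standard error is the absolute log2 difference divided by the square root of F. The step was tested on simulated data. Library totals were 26853488 to 38076753 counts. Standard errors reflect the spread between libraries, and floors (3 counts) cover counting error only. Exonic lengths came from GENCODE vM1, promoters from RefSeq on GRCm38.p6, and repeated stretches from BLAST 2.17.0 against NCBIM37.

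The individual values of 1 member are not reported here. Members and gene lists were chosen with earlier results of these data known. Named are the 10 members with the smallest p, the extremes of each complex in difference and in level per length (the 3 highest and the lowest), the isoform sets, the *Sdh* genes, the core of complex I and the symbol matches that were not retained. *Cox7b2* falls under the last of these, and *Cox7b* was added as its partner. The reported fit has no term for the replicate number. Deviations from the genotype means of same-numbered libraries correlated across genes with r of 0.227, 0.338 and 0.117, so the numbers may pair the libraries, and values blocked by number are given where they change a call or a count of calls. The source of the pairing is not given in the sources used here. Alternatives were the likelihood ratio test, DESeq2 1.42.0, limma-voom (limma 3.58.1), other scalings, other count limits, a replicate block, length offsets (loess span 0.3), the membership of a few genes and the omission of each library.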

Additional observations from a re-analysis of the deposited data

How the results depend on the processing

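The call of no member held under 12 of 13 alternative fits and in the 6 omissions. The exception was the replicate block with length offsets, which called 1 member, *Atp5k* (log2 -0.22, adjusted p = 0.0491 by edgeR). The block alone changed no call of a member. Over all genes the calls numbered 139 in the likelihood ratio test, 376 without a count limit, 110 under filterByExpr, 158 with the replicate block, 134 with the block and length offsets, and 42 to 113 when 1 library was left out, against 69 in the comparison reported. The cause of these shifts was not tested, and fewer or more genes were tested under the other limits. Members with a higher E861A mean numbered 13 to 14 in the other alternatives and 7 to 27 when 1 library was left out. The median over the members lay between -0.056 and -0.037 in the other alternatives, those on membership included, and between -0.087 and -0.022 in the omissions.

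Of 722 alternative values of 38 named members, 703 kept their sign and stayed uncalled, 1 was called and 18 changed sign, in 11 members. *Uqcr11* was at 8e-05 by limma-voom and at 0.0075 with upper-quartile scaling. In the omissions the log2 differences of these members ran from -0.0086 to 0.052 in *Atp5g1*, -0.004 to 0.062 in *Cox7a2*, -0.11 to 0.022 in *Ndufa4*, -0.06 to 0.021 in *Ndufa6*, -0.066 to 0.011 in *Ndufs1*, -0.029 to 0.033 in *Ndufs3*, -0.077 to 0.0094 in *Ndufv2*, -0.096 to 0.049 in *Sdhc*, -0.025 to 0.033 in *Uqcr11*, -0.00077 to 0.065 in *Uqcrh* and -0.019 to 0.068 in *Uqcrq*. With 3 libraries per genotype, differences of the size seen here were not separated from the spread between libraries.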
